A study of Homo sapiens with 6 samples.

Results

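The genes described here are 10 genes of the AP-1 and immediate early response, most of which cells switch on soon after a stimulus: *FOS*, *FOSB*, *FOSL1* and *FOSL2* of the FOS family, *JUN*, *JUNB* and *JUND* of the JUN family, and *ATF3*, *EGR1* and *IER3*. They were chosen by symbol, and each matched 1 row of the 58336 genes in the count table. RNA was sequenced from A2780 cells, an ovarian cancer line, after the DMSO vehicle or 48 h of 6 µM TH588. TH588 is an inhibitor of the nucleotide hydrolase MTH1 that also disturbs mitosis. Normalised counts are given as CPM, the usual scaling of counts to a fixed library total, here on TMM library sizes. The series' design gives 3 independent experiments for each treatment, and the replicates are lettered A, B and C, which makes 6 libraries of 28537837 to 99074175 counts. All libraries came from 1 cell line, and the inhibitor was given at 1 dose for 1 time. The sample labels give no exposure time for the DMSO libraries. The comparison asked how these genes stood after 48 h of inhibitor in that line.

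AP-1 is a dimer of leucine zipper proteins. FOS family proteins cannot pair with each other and bind DNA with a JUN partner, whereas JUN family proteins can also pair among themselves; ATF3 joins the same network and often represses. EGR1 is a zinc finger factor that answers to growth factor and stress signals through the MAP kinases and serum response factor, and IER3 is a small protein that modulates survival and ERK signaling. Most of their transcripts are made as a brief pulse and decay quickly, whereas *JUND* is present in resting cells. In epithelial cancers, ovarian cancer included, AP-1 is best known for its part in growth factor and stress responses.

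The DNA just before 4 of the start sites is shown, because these genes span the range from the largest rise to the smallest called one and carry different elements. The sequences are from RefSeq on GRCh38.p14, 250 bases up to the start site, written 5′ to 3′ on the strand of the gene. The *EGR1* stretch is chr5:138465229-138465478 on the plus strand, *FOS* is chr14:75278578-75278827 on the plus strand, *JUND* is chr19:18281623-18281872 on the minus strand, and *ATF3* is chr1:212565157-212565406 on the plus strand, the upstream one of 2 *ATF3* start sites. Capitals mark CArG boxes in *EGR1*, TATAAA in *FOS*, TGACGTCA in *JUND* and TGACATCA in *ATF3*.

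EGR1: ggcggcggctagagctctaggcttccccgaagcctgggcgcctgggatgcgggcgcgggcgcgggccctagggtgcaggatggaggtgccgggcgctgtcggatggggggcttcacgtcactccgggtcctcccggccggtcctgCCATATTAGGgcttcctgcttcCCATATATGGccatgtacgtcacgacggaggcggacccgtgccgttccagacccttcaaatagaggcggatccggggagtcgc

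FOS: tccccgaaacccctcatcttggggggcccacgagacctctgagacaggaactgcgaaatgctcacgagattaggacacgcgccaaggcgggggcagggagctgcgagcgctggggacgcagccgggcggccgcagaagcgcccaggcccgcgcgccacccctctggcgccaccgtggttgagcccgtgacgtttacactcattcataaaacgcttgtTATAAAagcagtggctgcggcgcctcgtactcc

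JUND: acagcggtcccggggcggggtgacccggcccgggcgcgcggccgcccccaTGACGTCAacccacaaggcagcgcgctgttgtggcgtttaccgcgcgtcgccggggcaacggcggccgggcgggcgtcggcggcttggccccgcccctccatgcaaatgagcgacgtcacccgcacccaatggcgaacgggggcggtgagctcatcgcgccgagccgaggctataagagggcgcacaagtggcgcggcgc

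ATF3: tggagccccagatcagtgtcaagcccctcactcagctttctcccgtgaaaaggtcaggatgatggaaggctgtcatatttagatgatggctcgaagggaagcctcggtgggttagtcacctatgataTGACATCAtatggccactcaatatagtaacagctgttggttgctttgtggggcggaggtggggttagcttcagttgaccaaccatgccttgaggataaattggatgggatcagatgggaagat

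In RefSeq windows of 300 bases, which also include the first bases of the transcript, 8 of the 10 genes were found (not *FOSL1* or *IER3*), in 9 windows. Both strands were searched for exact letters. *EGR1* was the 1 gene of the 8 with a CArG box, the element bound by serum response factor, and held matches at -105 and -83 relative to the start site; 1.29% of the 35116 windows held one. TGACNTCA was present in *JUN* at -67, *JUND* at -200 and *ATF3* at -123, against 7.72% of all windows, and the *JUND* match is also TGACGTCA, the cyclic AMP response element found in 1.85%. The AP-1 site TGANTCA occurred in *FOSL2* alone, at 4, against 7.71% of windows. TATAAA was found in *FOS*, *FOSB*, *JUNB* and the downstream *ATF3* window (11.5% of windows), the GC box GGGCGG in 6 genes (45.0% of windows), the ETS core CCGGAA in *FOSB* (17.2%) and GCGTGGGCG, an EGR site, in none of the 8 (0.795%). These are letter matches in short windows and do not show that a factor binds there. DNA more than 250 bases before a start site was not searched. A missing match, such as the CArG box in *FOS*, therefore does not show that the gene lacks the element.

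TH588 replicate A was the shallowest library, at 28537837 counts where the next had 77634048. *SNORD3A*, a small nucleolar RNA, took 21.94% of its counts, against 11.2% and 12.95% in TH588 replicates B and C. With DMSO the share was 7.68% to 10.59%, so every TH588 library was above every DMSO library. Of 10 ovarian and epithelial markers, *EPCAM* and *KRT18* passed the filter on low counts; *SOX17* had 0 counts in every library and *PAX8* in every DMSO library, so the defining Müllerian markers were at or under the detection limit. The summed normalised count of these markers was 3.89 to 4.63 CPM with DMSO and 10.9 to 12.2 CPM with TH588. Among 9 markers of other cell types, 3 were higher, *CD3E* was at 0 throughout, *COL3A1* made up nearly the whole sum of 1580 to 1920 CPM with DMSO and 1880 to 2620 CPM with TH588, and the sum without it was 12.4 to 13.8 and 17.5 to 18.8 CPM. The part of these marker shifts in the results was not tested. In bulk RNA, a change in the share of cells that make a transcript and a change per cell cannot be told apart.

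After TH588, 9 of the 10 genes were higher at an adjusted p under 0.05 in edgeR's quasi-likelihood test, none was lower, and *FOSL2* was not called. Across all 15844 genes tested, 49.6% were called, 24.2% as higher and 25.3% as lower. In each of the 9 genes the lowest TH588 library lay above the highest DMSO library, which held for 28.7% of all genes tested. The median log2 fold change was 1.95 over the 10 genes and 0.02 over all genes tested. A log2 fold change above 1 was seen in 8 of the 10, against 11.7% of all genes. The rise was graded, from 11.6-fold for *EGR1* to 1.62-fold for *ATF3*. An exact permutation test on 3 against 3 libraries has a smallest two-sided p of 0.1, and the calls therefore come from the fit across all genes. When only library size was normalised for, 60.4% of all called genes were higher, against 48.9% here, and the same 9 genes were called.

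**Figure D1:**
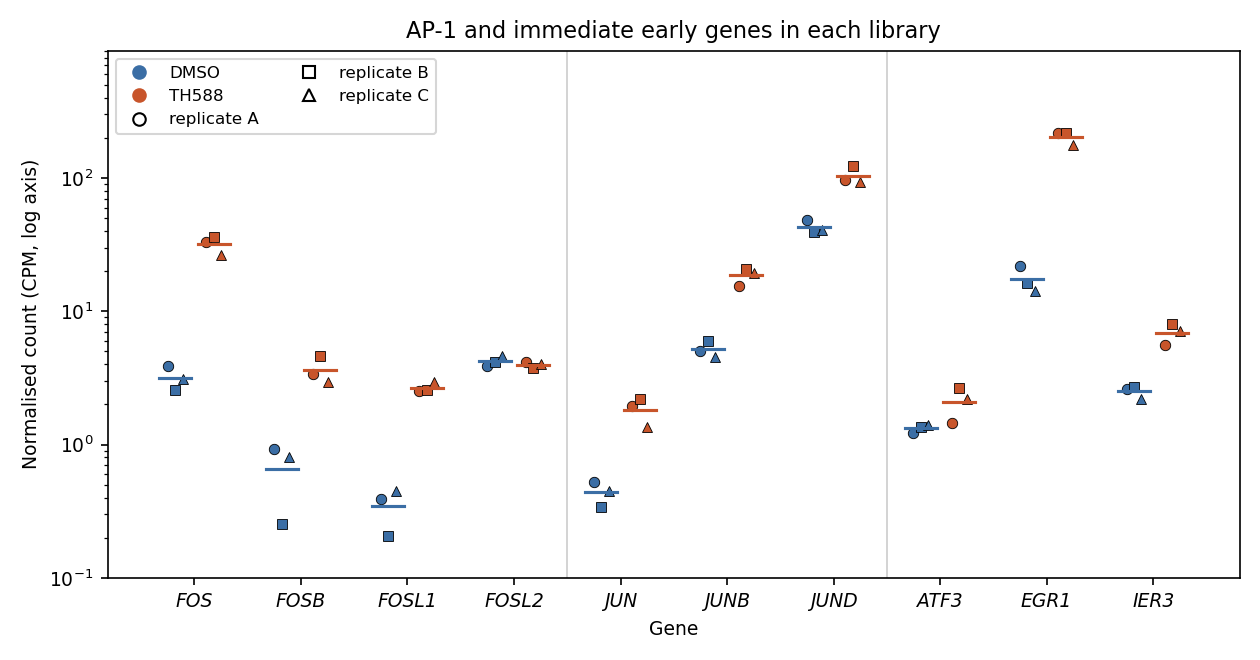
Normalised counts of the 10 genes in each library, in CPM on a log axis, with DMSO in blue, TH588 in orange, a marker shape for each replicate and a line at the group mean. In 9 genes the TH588 libraries lie above the DMSO libraries, and for *FOSL2* the groups overlap at 3.75 to 4.61 CPM.

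Within the FOS family, 3 of 4 members rose. *FOS*, the founding partner of JUN in AP-1, (ENSG00000170345, chr14:75278774-75282230) had 3.85, 2.56 and 3.10 CPM with DMSO and 33.0, 36.1 and 26.4 CPM with TH588, in the order of replicates A, B and C that is kept throughout. Each TH588 library thus stood far above the DMSO libraries. The mean went from 3.17 ± 0.647 to 31.8 ± 4.96 CPM (SD, n = 3 each). Its log2 fold change of 3.33 (SE 0.17, edgeR adjusted p = 4.1e-08) ranked 94 of 15844 genes by size of rise.

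*FOSL1* (ENSG00000175592, chr11:65892049-65900573) encodes FRA1, a FOS protein without the strong activation domain of FOS that is often high in invasive carcinoma cells. Its normalised counts were 0.389, 0.206 and 0.448 CPM with DMSO and 2.50, 2.55 and 2.94 CPM with TH588. The groups did not overlap although the gene was scarce. The change was 2.93 on the log2 scale (SE 0.28, edgeR adjusted p = 3.78e-06), on 17 to 42 raw counts per DMSO library and 67 to 277 per TH588 library. *FOSB* (ENSG00000125740, chr19:45467995-45475179) had 0.925, 0.254 and 0.801 CPM with DMSO and 3.36, 4.60 and 2.97 CPM with TH588. DMSO replicate B was low, so the DMSO libraries spread more than those of any other member, with a coefficient of variation of 54.0%. The log2 fold change of *FOSB* was 2.47 (SE 0.35, edgeR adjusted p = 0.000106).

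*FOSL2* (ENSG00000075426, chr2:28392448-28417312), which encodes FRA2, behaved differently. It had 3.89, 4.16 and 4.61 CPM with DMSO and 4.15, 3.75 and 4.0 CPM with TH588, and the groups overlapped. The log2 fold change was -0.10 (95% interval -0.39 to 0.20, adjusted p = 0.594 from edgeR), and the interval spans 0.761-fold to 1.15-fold. Its estimate changed sign to 0.014 when only library size was normalised for, where the median of all genes moved to 0.126.

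All 3 JUN family members rose, by less than *FOS*. *JUND* (ENSG00000130522, chr19:18279760-18281622), the steady JUN protein that is made in most resting cells, had 48.3, 39.6 and 40.9 CPM with DMSO and 96.1, 122 and 93.0 CPM with TH588. Every TH588 library stood above every DMSO library. Its mean went from 42.9 ± 4.67 to 104 ± 15.6 CPM (SD, n = 3 each). This log2 fold change of 1.27 (SE 0.11, edgeR adjusted p = 2.71e-06) was the smallest of the 6 called FOS and JUN family members.

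*JUNB* (ENSG00000171223, chr19:12791496-12793315), which can restrain JUN and also acts as an AP-1 partner, had 5.05, 5.97 and 4.55 CPM with DMSO and 15.5, 20.9 and 19.3 CPM with TH588. Its log2 fold change was 1.85 (SE 0.14, edgeR adjusted p = 8.97e-07). Exons of *HOOK2* on the opposite strand overlap 14.2% of the exon bases of *JUNB*, and whether the counting used strand is not stated. *HOOK2* itself went from 5.93 ± 0.230 to 7.88 ± 0.403 CPM (SD, n = 3 each), which is 0.41 in log2 terms. *JUN* (ENSG00000177606, chr1:58780788-58784327), the classical activating partner, had the lowest level of the family per length. It was at 0.523, 0.339 and 0.448 CPM with DMSO and 1.94, 2.20 and 1.35 CPM with TH588. The groups stood apart, on raw counts of 28 to 43 with DMSO and 52 to 239 with TH588. The log2 fold change of *JUN* was 2.06 (SE 0.28, edgeR adjusted p = 7.11e-05).

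*EGR1* (ENSG00000120738, chr5:138465490-138469315) showed the largest change of the 10 genes. It had 21.8, 16.4 and 14.3 CPM with DMSO and 217, 218 and 176 CPM with TH588. Its mean went from 17.5 ± 3.86 to 203 ± 23.9 CPM (SD, n = 3 each). The log2 fold change of 3.54 (SE 0.15, edgeR adjusted p = 1.62e-08) corresponds to 11.6-fold with a 95% interval of 9.26 to 14.7-fold, and it ranked 73 of 15844 genes by size of rise. No other gene's exons overlap it in the authors' table.

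*IER3* (ENSG00000137331, chr6:30743199-30744554) had 2.62, 2.70 and 2.21 CPM with DMSO and 5.57, 8.07 and 7.06 CPM with TH588, or 1.47 in log2 fold change (SE 0.16, edgeR adjusted p = 1.29e-05). The lowest TH588 library was well above the highest DMSO library. Exons of *IER3-AS1* on the opposite strand overlap 26.5% of its exon bases, and *IER3-AS1* had 0 counts in all 6 libraries.

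*ATF3* (ENSG00000162772, chr1:212565334-212620777), a stress-induced member of the network and a known target of both p53 and ATF4, had the weakest call. It had 1.22, 1.36 and 1.4 CPM with DMSO and 1.46, 2.65 and 2.18 CPM with TH588. TH588 replicate A was barely above the highest DMSO library, and the TH588 spread was wide (coefficient of variation 28.6%). The log2 fold change was 0.70 (SE 0.23, edgeR adjusted p = 0.0222). The call was lost without DMSO replicate A (0.66, adjusted p = 0.0578), without TH588 replicate B (0.49, adjusted p = 0.141) and without TH588 replicate C (0.70, adjusted p = 0.0624), and across all 15 alternatives run the adjusted p reached at most 0.141. The other 8 called genes passed 0.05 in each of the 15 alternatives, and also at 0.01.

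**Figure D2:**
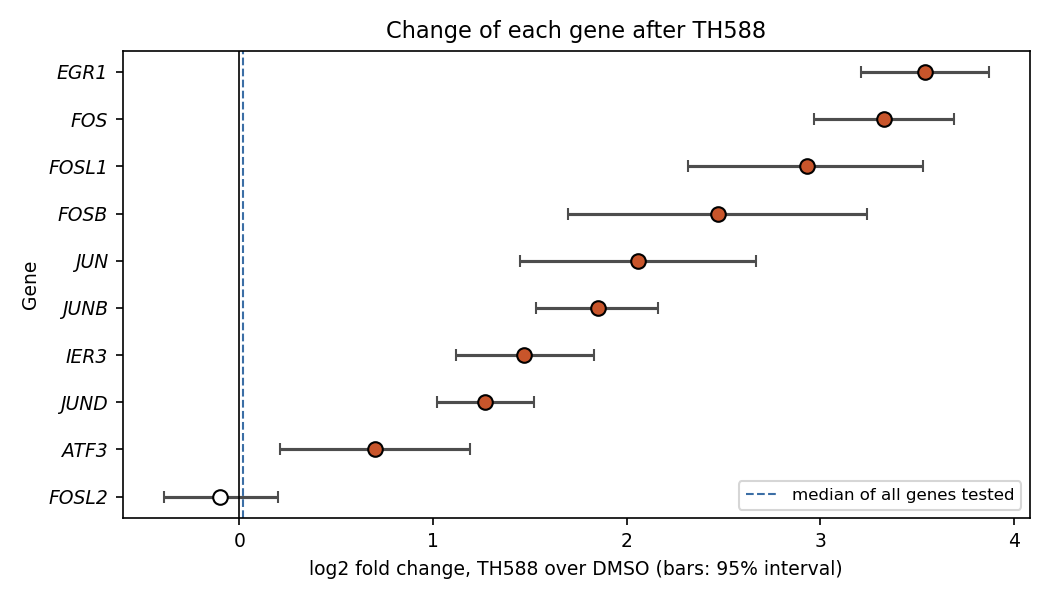
Log2 fold change of each gene after TH588 with its 95% interval from edgeR's quasi-likelihood fit; filled points passed an adjusted p of 0.05, and the dashed line is the median of all genes tested. *EGR1* (3.54) and *FOS* (3.33) are at the top, and the interval of *FOSL2* (-0.39 to 0.20) is the 1 that includes no change.

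Levels of different genes were compared as CPM per kilobase of exon. In DMSO cells the order was *JUND* (23.0 ± 2.50), *EGR1* (5.57 ± 1.23), *JUNB* (2.85 ± 0.397), *IER3* (1.85 ± 0.194), *FOS* (0.978 ± 0.200), *FOSL2* (0.590 ± 0.0508), *ATF3* (0.328 ± 0.0236), *FOSL1* (0.184 ± 0.0670), *JUN* (0.123 ± 0.0261) and *FOSB* (0.119 ± 0.0642), each as mean ± SD of 3 libraries. Neighbours in this order did not overlap, except *FOSL1* with *JUN* and *JUN* with *FOSB*. After TH588 the level of *EGR1* (64.8 ± 7.61) overlapped that of *JUND* (55.6 ± 8.39), and *FOS* (9.83 ± 1.53) overlapped *JUNB* (10.2 ± 1.52). *IER3* (5.09 ± 0.929) and *FOSL1* (1.41 ± 0.126) followed, apart from their neighbours. At the low end *FOSB* (0.656 ± 0.153), *FOSL2* (0.554 ± 0.0280), *ATF3* (0.519 ± 0.148) and *JUN* (0.517 ± 0.122) each overlapped the next. *JUN*, the gene that gives the family its name, was thus at the low end of the order in both groups.

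The make-up of the 2 families moved by different amounts on this scale. The summed FOS family level was 1.87 ± 0.305 CPM per kilobase with DMSO and 12.4 ± 1.54 with TH588. *FOS* made up 56.4%, 51.8% and 48.2% of it with DMSO, against 80.2%, 80.5% and 75.5% with TH588. *FOSL2* held 32.1% ± 6.12 with DMSO and 4.51% ± 0.699 with TH588 (SD, n = 3 each), while the shares of *FOSB* and *FOSL1* overlapped between the groups. In the JUN family the summed level was 26.0 ± 2.44 CPM per kilobase with DMSO and 66.3 ± 9.55 with TH588. *JUND* remained the main member, at 88.5% ± 1.92 and 83.8% ± 1.61, and *JUNB* held 11.0% ± 1.99 and 15.5% ± 1.75. *JUN* was under 1% of its family in every library, at 0.389% to 0.905%. These shares are a description of RNA levels and were not tested.

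**Figure D3:**
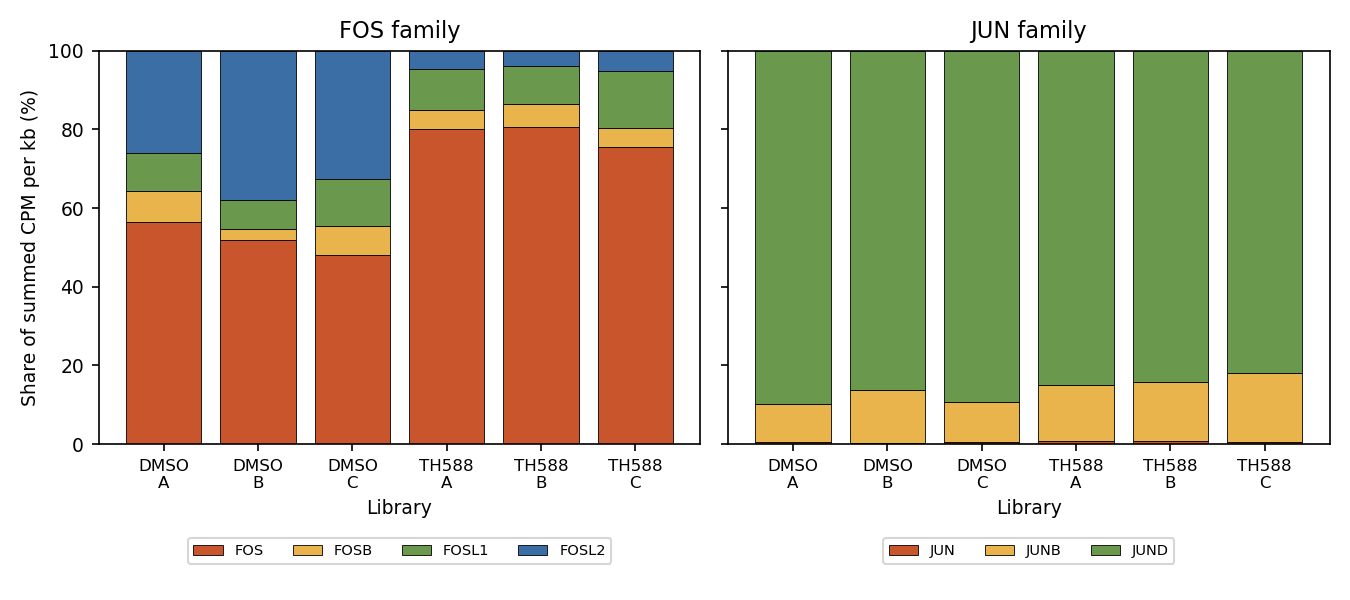
Share of each member in the summed CPM per kilobase of its family, in percent, for each library, with the FOS family on the left and the JUN family on the right. The *FOS* share goes from 48.2% to 56.4% with DMSO to 75.5% to 80.5% with TH588, while *JUND* makes up at least 82.0% of its family in every library.

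Within TH588, replicate B had the highest normalised count for 8 of the 10 genes, and replicate C had the lowest for 5 and replicate A for 4. Within DMSO, replicate B was the lowest for 5 genes and replicate A the highest for 5. Without the shallow TH588 replicate A, 9 of the genes were called, with a median log2 fold change of 2.00.

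Among 11963 other genes whose mean log2 CPM was 0 or more, the pattern closest to *EGR1* over the 6 libraries was that of *BTG2*, with a root mean square difference of 0.12 in centred log2 CPM. For *FOS* the closest were *BTG2* (0.12) and *SPOCD1* (0.16), and for *FOSL1* they were *FMO5* (0.18) and *ABTB1* (0.19). With 2 groups of libraries, likeness mostly reflects a similar fold change.

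Of 30 further immediate early genes, 26 could be tested, and 17 were higher and 4 were lower, and the list's median was 1.12 on the log2 scale. Over all genes tested, 24.2% were higher and 25.3% lower. The largest rises were those of *BTG2*, an antiproliferative gene (log2 fold change 3.40), *EGR3*, a close relative of *EGR1* (2.92), and *ZFP36*, whose product degrades AU-rich transcripts (2.61). *EGR3* had 0.767, 0.485 and 0.491 CPM with DMSO and 4.63, 4.44 and 4.15 CPM with TH588. The nuclear receptors *NR4A1*, *NR4A2* and *NR4A3* also rose, by log2 fold changes of 1.63, 2.56 and 2.55, and *CCN1*, a matricellular gene, went from 52.7 ± 4.64 to 145 ± 4.96 CPM (SD, n = 3 each; log2 fold change 1.47). The rise was not general. *KLF2*, *HBEGF* and *KLF6* fell, with log2 fold changes of -0.90, -0.79 and -0.56, as did *NFKBIA* (-0.53), and *IER2* was not called (0.75, adjusted p = 0.0666 from edgeR), although it was without TH588 replicate A (0.92, adjusted p = 0.0339). The *KLF2* call was lost in 5 of the 6 fits that each left out a library (adjusted p 0.0525 to 0.119), all but that without TH588 replicate B. *NR4A1*, *NR4A2*, *NR4A3*, *CCN1*, *NFKBIA* and *IER2* were picked after their values were seen. The values of *NR4A3* rest on low raw counts, 6 to 10 per DMSO library and 13 to 58 per TH588 library. Exons on the opposite strand overlap 30.8% of the exon bases of *IER2*.

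The other bZIP partners of AP-1 split. Of 13 listed, 10 were tested, 5 were higher and 2 lower, with a median log2 fold change of 0.61. *BATF2* rose from 0.595 ± 0.124 to 3.06 ± 0.433 CPM (SD, n = 3 each; log2 fold change 2.35), and the small MAF genes *MAFF* (1.96) and *MAFK* (0.76) rose too. *MAFK* lost its call without TH588 replicate B (0.60, adjusted p = 0.0622), and *TMEM184A* exons overlap 18.1% of its exon bases. *JDP2*, a repressor that pairs with JUN, fell (-1.10), and so did *BATF3* (-1.47), which lost its call without TH588 replicate C (-1.4, adjusted p = 0.0552). The fall of *BATF3* rests on low raw counts, 32 to 39 per DMSO library and 3 to 18 per TH588 library, with the 3 in replicate A. *BATF* had 0 counts in all libraries.

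In the MAP kinase cascade and SRF/TCF list, which holds kinases and factors upstream of AP-1, 7 of 28 were higher and 6 lower, with a median of 0.02. These counts are near the 24.2% and 25.3% of all genes tested and show nothing particular to the list. *MAPK10*, which encodes JNK3, rose (log2 fold change 1.52), and so did *MAPK3*, which encodes ERK1 (0.92), and *MAPK8IP3*, a JNK scaffold (0.73). *MAP3K5* (-0.77), *MAP3K4* (-0.70) and *MAPK9*, which encodes JNK2 (-0.63), fell. Per length *MAPK10* was scarce, with a mean of 0.0425 CPM per kilobase with DMSO and 0.123 with TH588. The means of *MAPK9* were 4.86 and 3.16. This gap depends on the exon lengths used, 42646 bases for *MAPK10* and 8955 for *MAPK9*. Without division by length, the DMSO and TH588 means were 1.81 and 5.24 CPM for *MAPK10* and 43.5 and 28.3 CPM for *MAPK9*. *SRF*, picked afterwards because its product binds CArG boxes, was 62.3 ± 2.75 and 61.1 ± 5.54 CPM (SD, n = 3 each; adjusted p = 0.813 from edgeR). These are RNA levels and say nothing of kinase activity.

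The feedback genes of the pathway gave 7 higher and 2 lower among 16 tested of 17 listed, with a median of 0.21. Among all genes tested the shares were 24.2% higher and 25.3% lower. *SPRY4*, an inhibitor of receptor signaling to ERK, rose from 5.39 ± 0.613 to 11.0 ± 1.59 CPM (SD, n = 3 each; log2 fold change 1.03). *DUSP8* (2.12) and *SPRED3* (1.36) rose from low counts, and both values depended on DMSO replicate A, without which they were 2.97 and 2.31. The call of *DUSP8* was lost without TH588 replicate B (1.97, adjusted p = 0.0601), and that of *SPRED3* in 5 of the 6 fits that each left out a library, all but that without DMSO replicate A (0.92 to 1.46, adjusted p 0.0562 to 0.108). The ERK phosphatases *DUSP9* (-1.25) and *DUSP7* (-1.18) fell. *DUSP10* had 0 counts in all libraries. *DUSP1* and *DUSP6*, picked afterwards as the best known MAP kinase phosphatases, had log2 fold changes of 0.21 (not called) and 0.39 (higher, with groups that overlapped). Exons on the opposite strand overlap 40.5% of the exon bases of *DUSP6*. The *DUSP6* call was lost without DMSO replicate B or C and without TH588 replicate A or B (0.32 to 0.37, adjusted p 0.0512 to 0.082).

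Of 25 genes widely cited as AP-1 targets, 17 were tested, 5 were higher and 5 lower, and the median log2 fold change was 0.08. These counts too are near the background of 24.2% higher and 25.3% lower. *LIF*, a cytokine gene, had 0.876, 0.969 and 1.17 CPM with DMSO and 15.8, 12.1 and 9.61 CPM with TH588 (log2 fold change 3.62). *IL11*, a related cytokine gene, rose by less (1.30). *FABP5* (-1.34), the metalloproteinase gene *MMP10* (-0.65) and *EZR* (-0.51) fell, and *CCND1*, picked afterwards, was not called (0.06). With library size only, 7 were higher and 3 lower.

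Of 9 partners and targets of EGR1, 7 were tested, with 1 higher and 2 lower and a median of -0.08. For so few genes, these counts are not far from the background of 24.2% higher and 25.3% lower. *NAB2*, which encodes an EGR1 corepressor and is induced by it, rose (log2 fold change 0.45), while *PDGFA* (-0.60) and *TGFB1* (-0.37) fell. The *PDGFA* call was lost without DMSO replicate B or C and without TH588 replicate B or C (adjusted p 0.0589 to 0.155). Without TH588 replicate A, 5 genes of this list were called, 2 higher and 3 lower, and with library size only *NAB2* alone was called.

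Proteins that bind the AU-rich elements of short-lived transcripts gave 2 higher and 5 lower of 8 tested, with a median of -0.33. The background was 24.2% higher and 25.3% lower. *ZFP36* (2.61) and *ZFP36L1* (0.82) rose, and their relative *ZFP36L2*, picked afterwards, was lower (-0.33). The *ZFP36L2* call was lost without DMSO replicate A (-0.20, adjusted p = 0.165), without TH588 replicate C (-0.24, adjusted p = 0.133) and with library size only. *HNRNPD* went from 484 ± 8.91 to 281 ± 7.34 CPM (SD, n = 3 each; log2 fold change -0.79), and *KHSRP* (-0.57) and *ELAVL1* (-0.42) also fell. ZFP36 family proteins and KHSRP promote decay and ELAVL1 stabilizes, so the RNA of decay-promoting factors moved in both directions. Protein levels and transcript decay were not tested.

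Around *ATF3*, 4 of 11 genes of the ATF4 and stress list were higher and 3 were lower, with a median of 0.24. For so short a list, these counts are not far from the background of 24.2% higher and 25.3% lower. *SESN2* (log2 fold change 1.82), *DDIT4* (1.5) and *PPP1R15A* (1.28) rose. *ATF5* (-1.60), *CEBPG* (-0.91) and *ATF4* itself (-0.36) fell, and the *ATF4* call was lost without DMSO replicate A (adjusted p = 0.0868), without DMSO replicate C (adjusted p = 0.0833) and with library size only (adjusted p = 0.246). Exons on the opposite strand overlap 41.2% of the exon bases of *DDIT4* and 21.2% of those of *ATF5*. All 8 genes of a short list of p53 targets among immediate early and related genes were higher, against 24.2% of all genes tested. The list had a median of 1.95 and was led by *BTG2* (3.40), *TP53INP1* (3.36) and *PLK2* (2.16). That list includes *ATF3*, and 4 more of its genes are on the list of further immediate early genes. It also shares *SESN2* with the ATF4 and stress list, so the lists are not separate evidence. It was also written with the rise of p53 targets in these libraries already known.

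**Figure D4:**
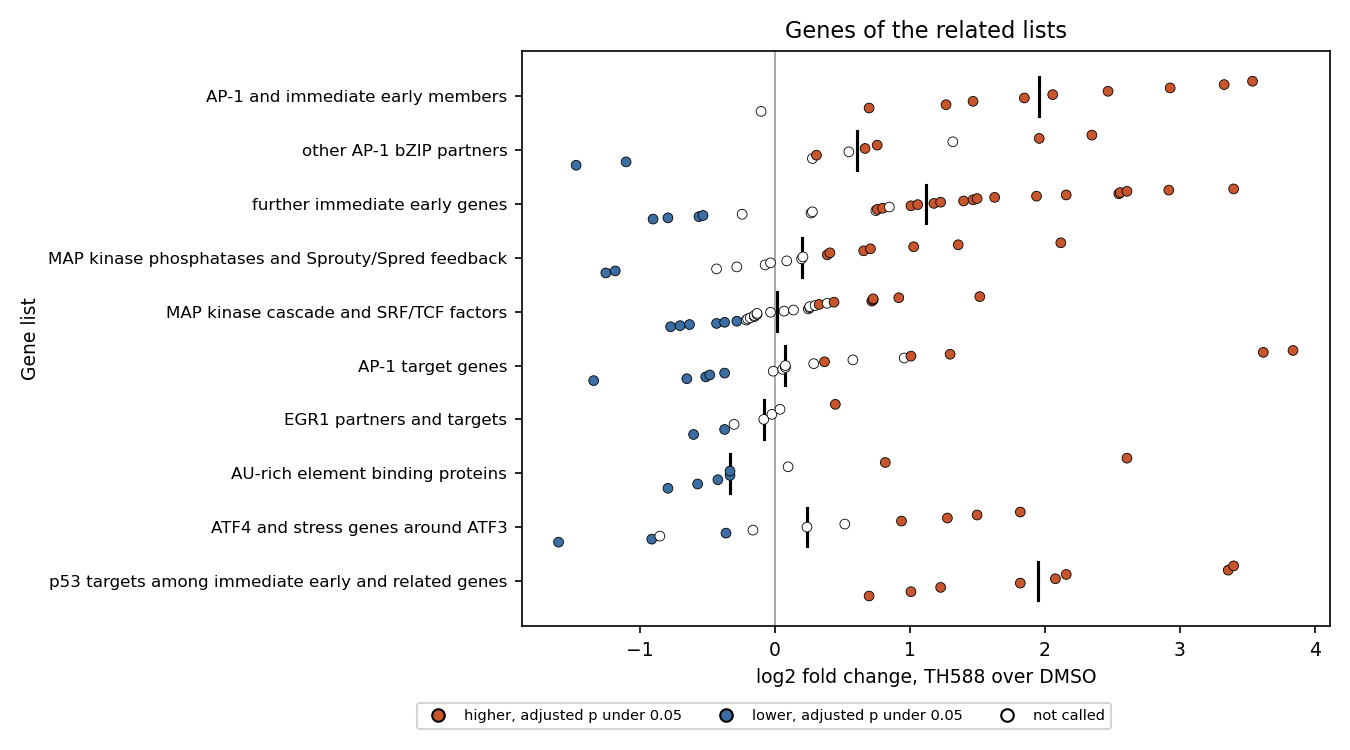
Log2 fold change after TH588 of every tested gene in the 10 genes and the related lists, 1 point per gene, coloured by call at an adjusted p of 0.05, with a bar at each list's median. The bars stand at 1.95 for the 10 genes and 1.12 for the further immediate early genes, against 0.08 for AP-1 targets and 0.02 for the MAP kinase cascade.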

How the data were processed

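PolyA RNA of A2780 cells treated with vehicle, or with 6 µM TH588 for 48 h, was sequenced (TruSeq v2) in 3 replicates each. The authors aligned reads to GRCh38 with TopHat and deposited raw counts per gene from featureCounts 1.4.6. Their methods cite UCSC annotation, but the deposited identifiers are from Ensembl, and 57754 of 58336 matched a symbol. How strand and reads shared by several genes were treated is not given in the sources used here. The authors tested with DESeq2.

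Here the counts were fitted with edgeR 4.0.16 (R 4.3.3, quasi-likelihood test, TMM, default low-count filter, treatment as the only term) in all 6 libraries, and p-values were adjusted by the Benjamini-Hochberg method over 15844 genes. CPM are counts per TMM library size, and CPM per kilobase divide them by the deposited exon length. The SE was derived from the log2 fold change and its F statistic, and intervals are at 95%. A count of 0 allows up to 3 counts, which equal 0.112 CPM in TH588 replicate A and 0.0276 to 0.0365 CPM elsewhere, for counting error only.

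The members and gene lists were chosen with earlier results of these data known. In each related list, the 3 largest rises and 3 largest falls with an adjusted p under 0.05 and no overlap between groups are named, with genes at 0 throughout. A gene that this rule names is not reported here. Likeness was computed for the 3 called members with the largest change. Counts of the 15844 genes were simulated with a log2 fold change of 1, up or down, in 200. The low-count filter then kept 15496 genes, 195 of them changed. The test recovered 116 of 117 whose mean log2 CPM reached 2 and 21 of 78 less abundant ones. Of its calls, 3.5% were false. The simulation changed a far smaller share of genes than the 49.6% called in the data, so these rates need not hold there. Same-letter libraries did not deviate together (correlations -0.07, -0.08 and 0), and replicates of a group differed by more than sampling noise.

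Alternatives were the DESeq2 size factors, scaling by library size only, DESeq2 1.42.0, limma-voom (limma 3.58.1), no low-count filter, a minimum of 10 counts in every library, leaving out single libraries, a replicate block, removal of the 10 most abundant genes, and an adjusted p under 0.01.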

Additional observations from a re-analysis of the deposited data

How the results depend on the processing

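Of the 10 genes, 9 were called under every alternative run except an adjusted p under 0.01 and the fits without DMSO replicate A, TH588 replicate B or TH588 replicate C, where *ATF3* was lost and 8 remained. *FOSL2* changed sign with library size only (0.014, not called), a scaling that moved the median of all genes to 0.126. With the replicate block, 7195 of all genes were called, against 7852, and the members called numbered 9; same-letter libraries did not pair, and the block ended the call of *PDGFA* (adjusted p = 0.0645) and of no other gene among the 10 and the 59 others recomputed. 2 list counts moved by over 1.5 times: the feedback genes called fell to 5 at an adjusted p under 0.01, and the EGR1 partners and targets called came to 1 when only library size was normalised for, and to 2 to 5 when single libraries were left out. The *FOS* share of its family rose by 37.9 percentage points on summed CPM, against 26.6 per length, because *FOSL2* is the longer transcript. Of the values of these 59 genes, 42 lost significance, 3 gained it (all of *IER2*) and 6 changed sign, none of them called: *SRF* with library size only (0.078) and without DMSO replicate A, TH588 replicate A or TH588 replicate C, and *CCND1* without DMSO replicate B or TH588 replicate B. With single libraries left out, *SRF* ranged from -0.106 to 0.041 and *CCND1* from -0.039 to 0.178. Genes under about 0.112 CPM cannot be followed in TH588 replicate A.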
